A study of Mus musculus with 4 samples.

Results

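The genes described here encode the proteins of the cytosolic ribosome. They were chosen by name: protein-coding symbols that start with Rpl or Rps and a number, with Rplp0, Rplp1, Rplp2 and Rpsa, and without the Rps6k kinases and names that end in -ps. This gave 89 of 24135 gene symbols. Of these, 46 are proteins of the large 60S subunit, 31 are proteins of the small 40S subunit, 11 are paralogues or copies of such genes, and 1, Rps19bp1, is a binding partner of the Rps19 protein that carries the name without being a ribosomal protein.

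RNA was sequenced from 4 cultures of mouse macrophages of the C57BL/6 strain, and each group holds 1 library. Bone marrow cells had been grown for 6 days with GM-CSF at 10 ng/ml, and the adherent cells were used. All 4 cultures were given interferon-gamma at 10 ng/ml for 4 h before lipopolysaccharide (LPS) at 100 ng/ml, which is an outer membrane lipid of bacteria sensed by Toll-like receptor 4. The groups were Batf2-/- cells at 3 h of LPS, Batf2-/- cells at 0 h, wild-type (WT, Batf2+/+) cells at 3 h and WT cells at 0 h, so the 0 h cultures had also received interferon-gamma. Batf2 is a basic leucine zipper protein that regulates transcription. The source of the Batf2-/- mice and the part of the gene that they lack are not given in the labels, and nothing states how many mice gave marrow to a culture. With 1 library per group no test was possible, and every difference below is a difference between 2 libraries.

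Levels are in FPKM, a density of reads that takes account of transcript length and library size. Read counts are not part of the tables, so depth is not known from them and precision was read from the 95% interval that the authors deposited beside each FPKM. For the 83 ribosomal protein genes that could be compared, the median distance from the FPKM to the end of its interval was 5.42% of the FPKM, the lowest was 1.67%, and Rpl39l had the widest, at 100%. These intervals cover the estimate within 1 library and not the spread between cultures. Genes with at least 1 FPKM numbered between 9501 and 10704 per library. Batf2 itself had 10.1 FPKM in Batf2-/- cells at 3 h and 0.259 FPKM at 0 h, against 234 FPKM in WT cells at 3 h and 2.63 FPKM at 0 h. All 10 macrophage markers had at least 1 FPKM in every library, while no lymphocyte or erythroid marker reached that level in any. In bulk RNA, fewer cells of a type and less RNA per cell cannot be told apart.

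Each ribosome carries 1 set of these proteins, most of them in a single copy, and growing cells make them in balanced amounts. Many of the mRNAs belong to the terminal oligopyrimidine (TOP) class: transcription starts at a C that is followed by a run of C and T bases. Through this tract mTOR and the RNA-binding protein Larp1 control how well the mRNA is translated and how long it lasts, and the factor Myc is known to raise transcription of ribosomal protein and ribosome biogenesis genes. An inflammatory stimulus is known to remodel translation in macrophages.

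The start sites of 8 of the genes are shown to make the tract, and its absence, visible. The windows run from 10 bases before the annotated start to 20 bases from it on, in RefSeq sequence of GRCm38.p6 (30 bases each, gene strand). Capitals mark a tract, defined as a C that lies from 5 bases before the start to the 5th base of the transcript and is followed by at least 4 further C or T bases. In the first 5 the tract begins before the annotated start and runs across it, in Rps27l it begins at the 2nd base of the transcript (at the first of its annotated starts) and in Rps2 at the 5th, and the window of Rpl24 holds none. Rps2, Rps27l and Rpl24 are shown because their levels depart from the group.
Rpl35: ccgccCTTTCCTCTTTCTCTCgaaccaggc
Rpl15: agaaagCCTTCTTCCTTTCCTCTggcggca
Rps10: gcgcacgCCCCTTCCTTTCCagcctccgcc
Rps6: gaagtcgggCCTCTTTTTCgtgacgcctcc
Rplp2: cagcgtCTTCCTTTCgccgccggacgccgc
Rps2: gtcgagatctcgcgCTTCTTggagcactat
Rps27l: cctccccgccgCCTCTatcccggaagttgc
Rpl24: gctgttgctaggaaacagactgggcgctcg

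The Rpl35 window lies at chr2:39005112-39005141 on the minus strand, Rpl15 at chr14:18270967-18270996 (minus), Rps10 at chr17:27635225-27635254 (minus) and Rps6 at chr4:86857348-86857377 (minus). Rplp2 lies at chr7:141447641-141447670 on the plus strand, Rps2 at chr17:24720053-24720082 (plus), Rps27l at chr9:66946076-66946105 (plus) and Rpl24 at chr16:55966265-55966294 (plus). Of the 89 genes, 69 had a promoter in the RefSeq table and 20 had none, Rps29 and Rpl29 among them. Such a tract was found for 32 of the 69, or 46.4%, against 19.95% of 17492 protein-coding genes with a promoter. An annotated start may lie some bases from the base that a cell uses, so a window without the tract says only that these letters are not there.

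Within the 300 bases from 250 before to 50 after the start, searched on both strands, CCGGAAG, the core bound by ETS factors such as GABP, was found for 26 of the 69 genes (37.7%) and for 12.9% of all promoters. The YY1 core AAGATGGC was found for 6 of the 69 (8.70%) and for 3.57% of all. The E-box CACGTG that Myc can bind was found for 6 of the 69 (8.70%) and for 8.91% of all. The TATA box letters TATAAA were found for 8 of the 69 (11.6%) and for 14.8% of all. A match is a description of letters and no proof of binding. No other motif than these, the tract and a GC box (GGGCGG, found for 59.4% of the 69 and 49.2% of all) was searched.

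Ribosomal protein genes were among the most abundant transcripts in all 4 libraries. Of the 89, 83 had at least 1 FPKM in a library and the status OK in all 4, and they are the genes compared below. Their median level was 147 FPKM in Batf2-/- cells at 3 h and 197 FPKM at 0 h, against 146 FPKM in WT cells at 3 h and 183 FPKM at 0 h. The median gene with at least 1 FPKM had 8.64 FPKM in Batf2-/- cells at 3 h and 10.8 FPKM at 0 h, against 9.01 FPKM in WT cells at 3 h and 11.1 FPKM at 0 h. Among the 500 genes of highest FPKM, 41 were of this family in Batf2-/- cells at 3 h and 55 at 0 h, against 37 in WT cells at 3 h and 54 at 0 h. All 89 together made up 3.80% of the summed FPKM in Batf2-/- cells at 3 h and 5.01% at 0 h, against 3.87% in WT cells at 3 h and 4.85% at 0 h. Both libraries at 3 h were thus lower than both at 0 h in this share, and the genotypes differed little beside that.

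The highest was Rplp1, which encodes a protein of the acidic stalk that recruits elongation factors. It had 1199 FPKM in Batf2-/- cells at 3 h and 1736 FPKM at 0 h, against 1261 FPKM in WT cells at 3 h and 1681 FPKM at 0 h. The next by mean level were Rpl41, the smallest ribosomal protein, with 967 FPKM in Batf2-/- cells at 3 h and 1258 FPKM at 0 h, against 1095 FPKM in WT cells at 3 h and 1226 FPKM at 0 h, and then Rps26, Rps24 and Rps15 of the small subunit. The stalk base Rplp0 had 454 FPKM in Batf2-/- cells at 3 h and 705 FPKM at 0 h, against 494 FPKM in WT cells at 3 h and 657 FPKM at 0 h. Rplp2, the partner of Rplp1 in the stalk, had 251 FPKM in Batf2-/- cells at 3 h and 312 FPKM at 0 h, against 256 FPKM in WT cells at 3 h and 293 FPKM at 0 h. Although the proteins are needed in similar amounts, their listed mRNA levels spanned a wide range. The middle 50% of the 83 genes lay between 102 and 380 FPKM in Batf2-/- cells at 0 h and between 90.2 and 357 FPKM in WT cells at 0 h. Some of these levels depend on how reads were split with copies, as described below.

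**Figure D1:**
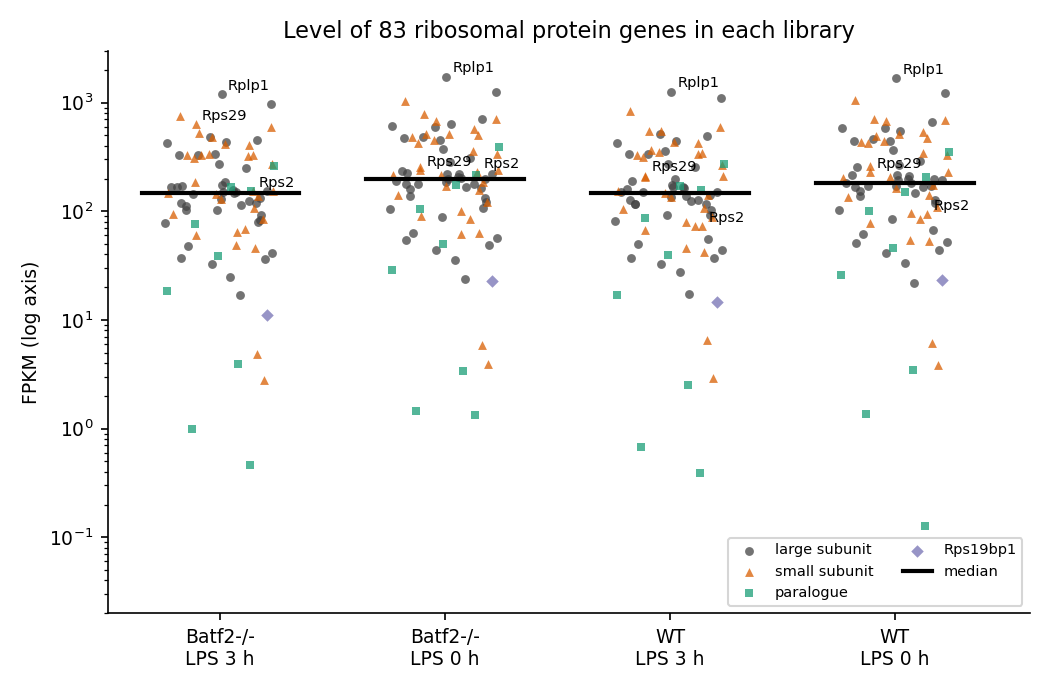
FPKM (log axis) of the 83 ribosomal protein genes in each of the 4 libraries, 1 point per gene, with the median as a black bar. The medians are 147 (Batf2-/- at 3 h), 197 (Batf2-/- at 0 h), 146 (WT at 3 h) and 183 FPKM (WT at 0 h), and Rps29 stands higher in the Batf2-/- library at 3 h than in the other 3.

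The 6 genes that could not be compared show how copies share the reads of this family. Rpl26, Rpl30 and Rpl34 were listed at 0 in all 4 libraries, but entries named for a copy stood at the same place and carried signal. The entry Gm15772 at the Rpl26 locus had 309 FPKM in Batf2-/- cells at 3 h and 382 FPKM at 0 h, against 307 FPKM in WT cells at 3 h and 374 FPKM at 0 h. The entry Gm12191 at the Rpl30 locus had 225 FPKM in Batf2-/- cells at 3 h and 267 FPKM at 0 h, against 229 FPKM in WT cells at 3 h and 307 FPKM at 0 h. The entry Rpl34-ps1 at the Rpl34 locus had 106 FPKM in Batf2-/- cells at 3 h and 120 FPKM at 0 h, against 156 FPKM in WT cells at 3 h and 182 FPKM at 0 h. The Gm15772 and Rpl34-ps1 entries had the status LOWDATA in all 4 libraries, so their values are uncertain, and the Gm12191 entry had OK. A listed 0 for these 3 genes therefore does not show that they were silent. Rpl38, a large subunit protein, had the status LOWDATA, with 471 FPKM in Batf2-/- cells at 3 h and 684 FPKM at 0 h, against 475 FPKM in WT cells at 3 h and 589 FPKM at 0 h. Rps27rt, listed at the Rps27 locus, had the same status, and Rpl10l, a testis paralogue of Rpl10, had at most 0.038 FPKM.

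Paralogues ranged from under 1 FPKM to levels above the median of the family. Rpl36al, a copy of Rpl36a whose transcript matches it at 87.7% of 332 aligned bases, had 260.1 FPKM in Batf2-/- cells at 3 h and 387 FPKM at 0 h, against 272 FPKM in WT cells at 3 h and 348 FPKM at 0 h. Its parent Rpl36a had 152 FPKM in Batf2-/- cells at 3 h and 221 FPKM at 0 h, against 151 FPKM in WT cells at 3 h and 195 FPKM at 0 h. Rps27l, known as a target of p53, exceeded the listed value of its parent Rps27 in every library, with between 149 and 174 FPKM against between 4.89 and 6.50 FPKM. The Rps27 value came from a noncoding transcript of the gene, and its coding transcript was listed at 0 in all 4 libraries. The Rps27rt entry stands at the same place. This order therefore does not show that Rps27l had more RNA than its parent. Rpl37rt, with between 152 and 214 FPKM, exceeded Rpl37, with between 17.0 and 23.9 FPKM. The tissue-specific paralogues were low: Rpl3l, a muscle form of Rpl3, had at most 1.45 FPKM and Rpl39l, a germ cell form of Rpl39, at most 1.34 FPKM. Rpl22l1, the paralogue of Rpl22, had 3.91 FPKM in Batf2-/- cells at 3 h and 3.40 FPKM at 0 h, against 2.53 FPKM in WT cells at 3 h and 3.48 FPKM at 0 h. Where a copy and its parent are nearly identical, the split of reads between them is uncertain. This holds for compared genes too. Rpl14-ps1, which matches Rpl14 at 98.9% of 656 aligned bases, had between 252 and 384 FPKM, against between 83.9 and 132 FPKM for Rpl14. Rps15a had between 2.78 and 3.95 FPKM, and Rps15a-ps4, which matches it at 97.4% of 459 aligned bases, between 5.58 and 7.92 FPKM.

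After LPS the ribosomal protein genes of Batf2-/- cells were lower as a group, by nearly the same factor for nearly all of them. The median ratio of 3 h to 0 h was 0.712, with quartiles of 0.682 and 0.760. On the log2(FPKM + 1) scale, which is used for all differences and understates those of low genes, the median was -0.47 and 80 of 83 genes were below 0. The median gene was lower too, at -0.64 over 10963 genes, of which 2207 were above 0. Summed FPKM was similar in the 2 libraries, at 467189 at 3 h and 476534 at 0 h. Relative to the median over all genes the ribosomal protein genes were higher by 0.17. With each library divided by the median ratio over all genes, the direction turned to a median of 0.15 above 0. The ribosomal protein genes differed little among themselves: the interquartile range was 0.16 against 0.90 for all genes, and 73 of 83 lay within 0.2 of their median. A gene was called different when it differed at least 2-fold, had at least 1 FPKM in either library, and had deposited intervals that do not overlap. By this rule none of the 83 genes was lower, beside 28% of all genes, and 1, Rps29, was higher, beside 7.85%. By intervals that do not overlap, with no limit on size, 72 of 83 were lower, or 86.7%, beside 70% of all genes. Such a share also depends on interval width, and here and below the widths were not matched to those of all genes.

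WT cells showed the same pattern with a smaller step. The median ratio of 3 h to 0 h was 0.792, with quartiles of 0.756 and 0.841, and the median difference was -0.33. Below 0 were 79 of 82 genes, or 96.3%, beside 78.0% of all genes. The median over 10845 genes was -0.54, so that the ribosomal protein genes were higher by 0.21 relative to it, and the same division by the median ratio turned the direction to 0.21 above 0. The interquartile range was 0.15 against 0.88 for all genes. None of the 82 genes passed the 2-fold rule, beside 23.2% of all genes that were lower and 7.56% that were higher. Intervals that do not overlap put 62 of 82 lower, or 75.6%, beside 64.5% of all genes. Large subunit genes had medians of -0.46 in Batf2-/- cells and -0.33 in WT cells, and small subunit genes had medians of -0.48 in Batf2-/- cells and -0.32 in WT cells. Of 81 genes compared in all 4 ways, 76 were lower at 3 h in both genotypes by the deposited FPKM.

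**Figure D2:**
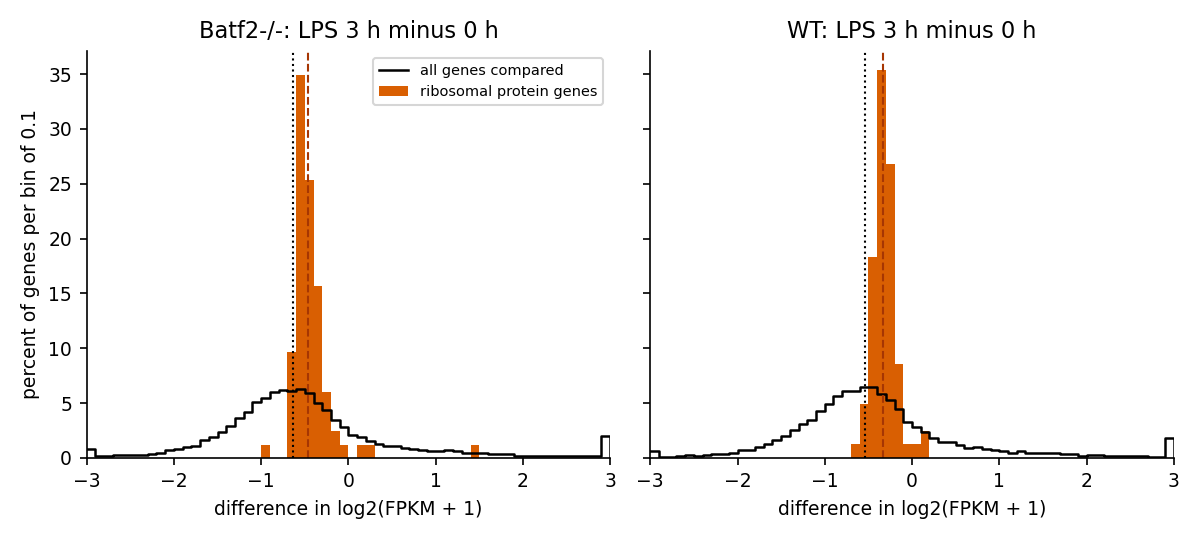
Distribution of the LPS difference (3 h minus 0 h, log2(FPKM + 1)) of the ribosomal protein genes (bars) and of all genes compared (line) as percent of genes per bin of 0.1, with medians as dashed and dotted lines and values beyond 3 gathered in the end bins. The ribosomal protein genes form a narrow peak at a median of -0.47 in Batf2-/- cells and -0.33 in WT cells, to the right of the medians of all genes at -0.64 in Batf2-/- cells and -0.54 in WT cells, and their direction turns when libraries are divided by the median ratio of all genes.

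Genes of different roles showed values close to the group. Rps6, the small subunit protein that S6 kinase phosphorylates, had 94.9 FPKM in Batf2-/- cells at 3 h and 140.2 FPKM at 0 h, against 104 FPKM in WT cells at 3 h and 135 FPKM at 0 h. Rpl5 and Rpl11, which with 5S rRNA can bind Mdm2 and stabilise p53, differed by -0.52 and -0.45 in Batf2-/- cells and by -0.39 and -0.41 in WT cells. Rpl13a, whose protein is known to silence translation of inflammatory mRNAs after interferon-gamma, had 123 FPKM in Batf2-/- cells at 3 h and 178 FPKM at 0 h, against 126 FPKM in WT cells at 3 h and 166 FPKM at 0 h. Rpl13a is also 1 of 4 genes whose FPKM stood at an uneven distance from its own interval in the 4 libraries, and with interval midpoints its ratio of 3 h to 0 h was 0.574 in Batf2-/- cells and 0.911 in WT cells. Rpl10, which completes the 60S subunit, differed by -0.44 in Batf2-/- cells and by -0.33 in WT cells. Rpsa, also known as the laminin receptor, was near the low end in Batf2-/- cells, with 333 FPKM at 3 h and 517 FPKM at 0 h, against 366 FPKM in WT cells at 3 h and 489 FPKM at 0 h.

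The genes at the edges of the group were few. Rps19bp1, which is no ribosomal protein, had the lowest difference in both genotypes, with 11.1 FPKM in Batf2-/- cells at 3 h and 22.6 FPKM at 0 h, against 14.7 FPKM in WT cells at 3 h and 23.4 FPKM at 0 h. Among genes with at least 5 FPKM, Rpl14 was next in Batf2-/- cells at -0.64, and Rpl7l1 and Rpl3 were next in WT cells at -0.59 and -0.54. Rpl24, a 60S protein that joins late in assembly, was higher at 3 h in both genotypes, with 103 FPKM in Batf2-/- cells at 3 h and 88.7 FPKM at 0 h, against 91.5 FPKM in WT cells at 3 h and 85.1 FPKM at 0 h. Rps27l differed by -0.06 in Batf2-/- cells and by 0.18 in WT cells. Members with a tract at the start had a median difference of -0.41 (29 genes) and those without one of -0.53 (35 genes) in Batf2-/- cells; in WT cells the medians were -0.29 (29 genes) and -0.37 (34 genes).

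Between genotypes the family differed by a few percent, in opposite directions at the 2 times. At 3 h the median ratio of Batf2-/- to WT was 0.957 and the median difference was -0.06, close to the median of -0.07 over 9808 genes. Below 0 were 64 of 81 genes, or 79.0%, beside 65.6% of all genes. With libraries divided by the median ratio the direction at 3 h turned to 0.018 above 0. Intervals did not overlap with Batf2-/- lower for 13 of the 81 genes, or 16.0%, beside 16.8% of all genes, which is a share near the background. At 0 h the median ratio was 1.04, the median difference was 0.06 and 72 of 83 genes were above 0. The median over 10846 genes was -0.00, and 5412 of these were above 0. Intervals did not overlap with Batf2-/- higher for 15 of the 83, or 18.1%, beside 9.87% of all genes, with interval widths not matched. Other lists described below had medians above 0 at 0 h as well. Ribosome biogenesis factors had 0.13 (61 of 68 above 0) and elongation and release factors 0.10 (13 of 15). Mitochondrial ribosomal proteins had 0.07 (54 of 77) and initiation factors 0.06 (28 of 38). Of 81 genes compared at both times, 55 were higher in Batf2-/- cells at 0 h and lower at 3 h. Lists of cell type and cycling markers also differed between the cultures. Of the 10 macrophage markers, 7 were higher in Batf2-/- than in WT cells at 3 h and 3 were lower. Cd14 was the highest of these differences, at 625 FPKM against 294 FPKM. At 0 h 7 of the 10 were higher and 3 were lower, Cd14 among the lower. Summed neutrophil markers had 5459 FPKM in Batf2-/- cells at 3 h and 9040.2 FPKM at 0 h. In WT cells they had 5749 FPKM at 3 h and 3618 FPKM at 0 h. All 8 neutrophil markers had 1 FPKM or more in each library. Summed cycling markers had 90.4 FPKM in Batf2-/- cells at 3 h and 134 FPKM at 0 h, against 82.2 FPKM in WT cells at 3 h and 148 FPKM at 0 h. Of the 5 cycling markers, 4 were lower in Batf2-/- than in WT cells at 3 h, and all 5 were lower at 0 h. Mki67 was the 1 that was higher at 3 h, at 52.2 FPKM in Batf2-/- cells against 38.1 FPKM in WT cells. After LPS 4 of the 5 were lower in each genotype. Summed stromal markers had 52.7 FPKM in Batf2-/- cells at 3 h and 73.8 FPKM at 0 h, against 33.5 FPKM in WT cells at 3 h and 33.0 FPKM at 0 h. Summed dendritic cell markers had 2892 FPKM in Batf2-/- cells at 3 h and 3119.9 FPKM at 0 h, against 3370 FPKM in WT cells at 3 h and 4932 FPKM at 0 h, with 5 of 7 markers at 1 FPKM or more at 3 h and 6 of 7 at 0 h in both genotypes. Most of this sum was Ccl17, with 2354 FPKM in Batf2-/- cells at 3 h and 2553 FPKM at 0 h, against 2881 FPKM in WT cells at 3 h and 4348 FPKM at 0 h. Of the dendritic cell markers compared at 3 h, 3 of 5 were lower in Batf2-/- cells and 2 were higher, Ccr7 among them. At 0 h 5 of 6 were lower. Summed mast cell and basophil markers had 23.3 FPKM in Batf2-/- cells at 3 h and 11.5 FPKM at 0 h, against 15.2 FPKM in WT cells at 3 h and 5.83 FPKM at 0 h. At 3 h most of this sum was Hdc, with 16.9 FPKM in Batf2-/- cells and 10.8 FPKM in WT cells. The part of these cells in the differences was not tested.

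By the 2-fold rule 2 genes were higher in Batf2-/- cells at 3 h, Rps2 and Rps29, beside 0.734% of all genes, and none was lower, beside 0.724%. At 0 h Rps2 and Rpl39l were higher, beside 1.33%, and none was lower, beside 0.387%. Rps2 (chr17:24720063-24721927), a protein near the mRNA entry of the small subunit, had 154 FPKM in Batf2-/- cells at 3 h and 228 FPKM at 0 h, against 72.9 FPKM in WT cells at 3 h and 94.7 FPKM at 0 h. Both Batf2-/- libraries were above both WT libraries, by 2.11 times at 3 h and 2.41 times at 0 h, while its LPS differences of -0.56 in Batf2-/- cells and -0.37 in WT cells were close to the group. Rpl29 (chr9:106429539-106431567), a heparin-binding 60S protein, showed the same order with smaller steps, at 79.3 FPKM in Batf2-/- cells at 3 h and 107 FPKM at 0 h, against 55.5 FPKM in WT cells at 3 h and 67.4 FPKM at 0 h. Its intervals did not overlap between genotypes at either time, and it did not reach 2-fold. Rpl39l differed at a level near 1 FPKM, with 1.34 FPKM in Batf2-/- cells at 0 h and 0.127 FPKM in WT cells at 0 h.

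**Figure D3:**
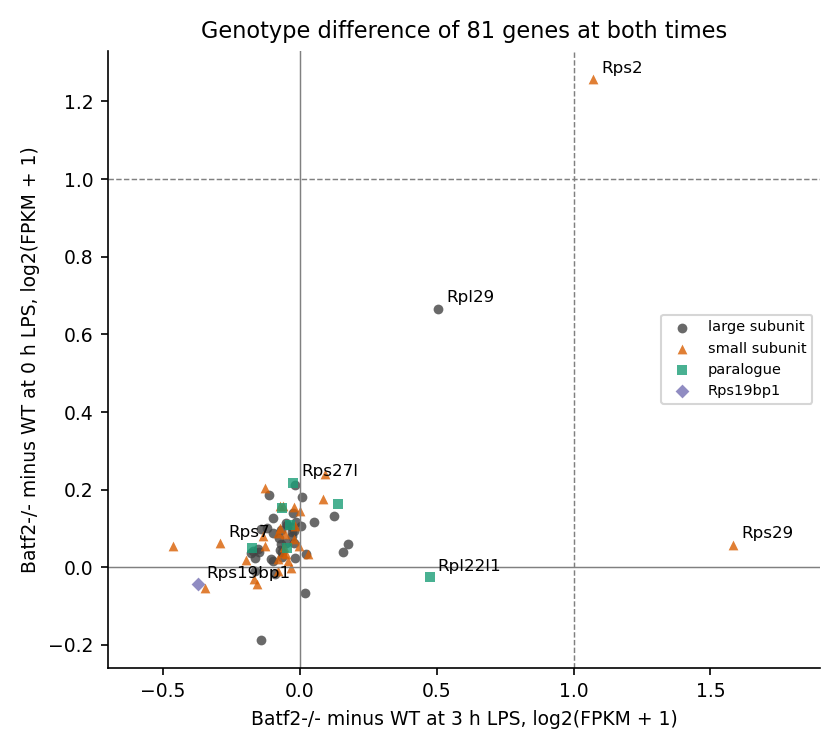
Difference between Batf2-/- and WT in log2(FPKM + 1) at 3 h of LPS (horizontal) and at 0 h (vertical) for the 81 ribosomal protein genes compared at both times, 1 point per gene, with dashed lines at 2-fold. Most genes lie near medians of -0.06 at 3 h, which turns to 0.018 when libraries are divided by the median ratio, and 0.06 at 0 h, with Rps2 apart at both times and Rps29 apart at 3 h.

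Rps29 (chr12:69157722-69159186), a small zinc-binding protein of the 40S subunit that in humans has been found mutated in Diamond-Blackfan anaemia, differed from the rest in 1 library. It had 639.6 FPKM in Batf2-/- cells at 3 h and 238 FPKM at 0 h, against 213 FPKM in WT cells at 3 h and 229 FPKM at 0 h. The other 3 libraries lay close together, and the Batf2-/- library at 3 h was 2.69 times the level at 0 h and 3.00 times the WT level at 3 h. Rps7, a 40S protein that like Rpl5 and Rpl11 can bind Mdm2, was lowest in the same library, with 65.0 FPKM in Batf2-/- cells at 3 h and 101 FPKM at 0 h, against 79.8 FPKM in WT cells at 3 h and 96.3 FPKM at 0 h. A low value in that library was common in the family. There 64 of 81 genes were lower than in WT cells at 3 h, and 80 of 83 were lower than in Batf2-/- cells at 0 h. A value that rests on 1 library has no replicate check.

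**Figure D4:**
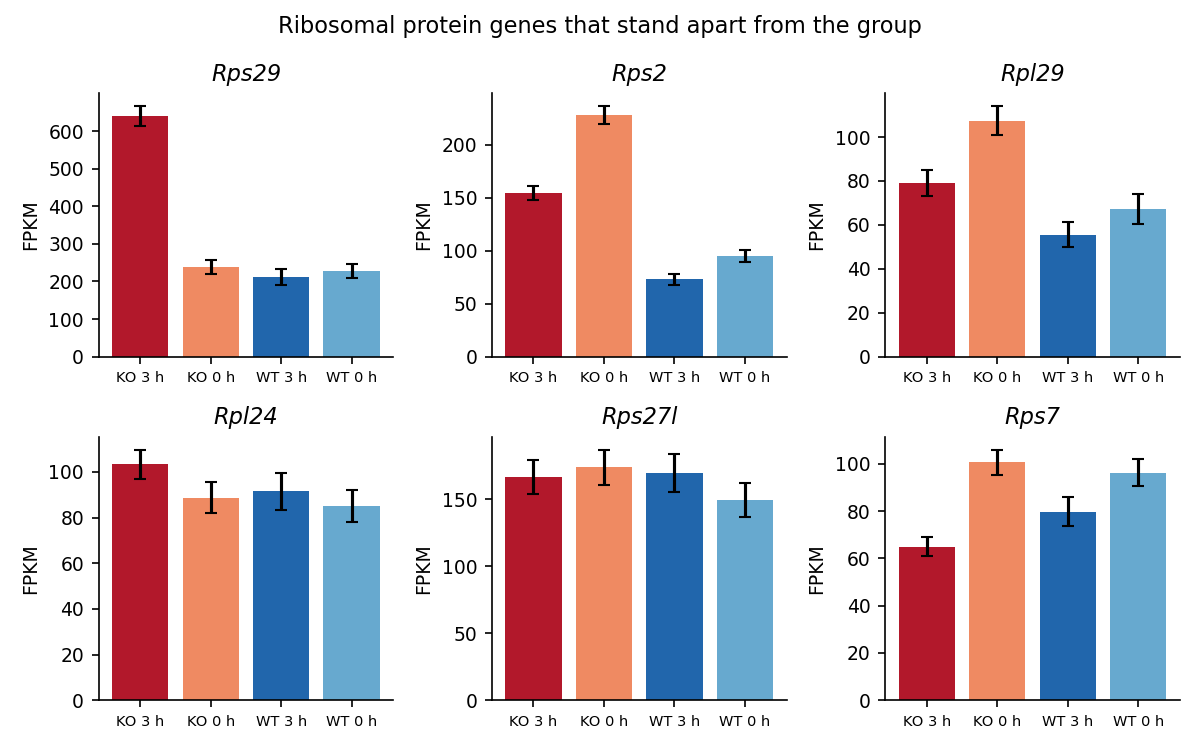
FPKM of 6 ribosomal protein genes in the 4 libraries (KO, Batf2-/-), with error bars for the deposited 95% interval drawn around the FPKM at an unchanged relative width. Rps29 is high in the Batf2-/- library at 3 h alone, and Rps2 and Rpl29 are higher in both Batf2-/- libraries than in both WT libraries. Rps7 is lowest in the Batf2-/- library at 3 h, where low values are common in the family.

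By the deposited FPKM, most of the family had a lower LPS difference in Batf2-/- than in WT cells. The difference of the responses, which is the LPS difference in Batf2-/- cells minus that in WT cells, had a median of -0.14, while the median over 11128 genes was -0.08. It was below 0 for 76 of 83 genes, or 91.6%, beside 63.4% of all genes. With libraries divided by the median ratio, the median of the family was -0.04. Its interval, propagated from the deposited ones, lay below 0 for 35 of the 83 genes, or 42.2%, beside 21.8% of all genes, and above 0 for 1, Rps29, beside 9.52%. These shares also depend on interval width, which was not matched between the family, at its high levels, and all genes. By the 2-fold rule Rps29 was called higher at 1.52 (interval 1.31 to 1.74), beside 0.962% of all genes, and none was lower, beside 1.51%. Among the lowest differences of responses were those of Rps7 at -0.35 (-0.53 to -0.18) and Rps14 at -0.33 (-0.61 to -0.06). The lists described below also had medians under 0 for the difference of responses. These were -0.24 for ribosome biogenesis factors, -0.17 for mitochondrial ribosomal proteins and -0.14 for elongation and release factors. They were -0.12 for initiation factors and -0.06 for regulators of ribosomal protein synthesis. Each of these values uses all 4 libraries and carries any shift that 1 of them holds.

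Other parts of the translation machinery were set beside the family. Fau, which encodes a 40S protein fused to a ubiquitin-like domain, had 206 FPKM in Batf2-/- cells at 3 h and 249 FPKM at 0 h, against 215 FPKM in WT cells at 3 h and 248 FPKM at 0 h. Rack1, a scaffold on the 40S subunit, had 291 FPKM in Batf2-/- cells at 3 h and 422 FPKM at 0 h, against 313 FPKM in WT cells at 3 h and 403 FPKM at 0 h. Neither passed the 2-fold rule. Eef1a1, the factor that brings aminoacyl-tRNA to the ribosome, had 1397 FPKM in Batf2-/- cells at 3 h and 1941 FPKM at 0 h, against 1516 FPKM in WT cells at 3 h and 1864 FPKM at 0 h. Eef2, the translocase, had 388 FPKM in Batf2-/- cells at 3 h and 583 FPKM at 0 h, against 416 FPKM in WT cells at 3 h and 628 FPKM at 0 h. Pabpc1, the poly(A)-binding protein and also a TOP mRNA, had 454 FPKM in Batf2-/- cells at 3 h and 413 FPKM at 0 h, against 440.4 FPKM in WT cells at 3 h and 409.7 FPKM at 0 h. Elongation and release factors had medians of -0.55 in Batf2-/- cells and -0.31 in WT cells, with 2 of 15 lower by the 2-fold rule in Batf2-/- cells (13.3%, beside 28% of all genes) and 1 of 15 in WT cells (6.67%, beside 23.2%). Initiation factors had medians of -0.51 in Batf2-/- cells and -0.42 in WT cells. Of 39, 4 were lower in Batf2-/- cells (10.3%, beside 28% of all genes) and 2 in WT cells (5.13%, beside 23.2%). In each genotype 1 was higher (2.56%, beside 7.85% of all genes in Batf2-/- cells and 7.56% in WT cells). This was Eif2a, listed at 0 in both genotypes at 0 h, and at 11.3 FPKM in Batf2-/- and 12.2 FPKM in WT cells at 3 h. A listed 0 does not show that the gene was silent. Eif4b, which helps the helicase Eif4a, was lower at -1.33 in Batf2-/- cells and at -1.49 in WT cells. Relative to all genes the medians of the initiation and of the elongation and release factors were above 0 in both genotypes, as for the ribosomal protein genes.

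Genes that build ribosomes had lower medians than those of its proteins, a difference that was not tested. Of 68 ribosome biogenesis factors, 35 were lower and 1 was higher by the 2-fold rule in Batf2-/- cells after LPS, with a median of -1.02. These are 51.5% lower beside 28% of all genes, and 1.47% higher beside 7.85%. In WT cells 22 of the 68 were lower, or 32.4% beside 23.2% of all genes, with a median of -0.79. There 1 was higher, or 1.47% beside 7.56%. Relative to all genes the median was -0.38 in Batf2-/- cells and -0.25 in WT cells. Nop56, a core protein of box C/D snoRNPs, had 7.84 FPKM in Batf2-/- cells at 3 h and 35.8 FPKM at 0 h, against 8.88 FPKM in WT cells at 3 h and 32.4 FPKM at 0 h. Nolc1, a nucleolar phosphoprotein, had 5.87 FPKM in Batf2-/- cells at 3 h and 27.8 FPKM at 0 h, against 6.71 FPKM in WT cells at 3 h and 24.3 FPKM at 0 h. Sbds, which releases Eif6 from the 60S subunit, was the 1 that was higher, with 192 FPKM in Batf2-/- cells at 3 h and 47.1 FPKM at 0 h, against 195 FPKM in WT cells at 3 h and 45.3 FPKM at 0 h. Npm1, the nucleolar chaperone, had 59.4 FPKM in Batf2-/- cells at 3 h and 104 FPKM at 0 h, against 58.7 FPKM in WT cells at 3 h and 91.4 FPKM at 0 h. The proteins of the mitochondrial ribosome, which is a separate machine, had medians of -0.82 in Batf2-/- cells and -0.66 in WT cells. Of 77, 22 were lower in Batf2-/- cells (28.6%, beside 28% of all genes) and 15 in WT cells (19.5%, beside 23.2%). Both of these shares are near or below those of all genes. None was higher, beside 7.85% of all genes in Batf2-/- cells and 7.56% in WT cells. Relative to all genes these medians were -0.18 in Batf2-/- cells and -0.12 in WT cells.

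**Figure D5:**
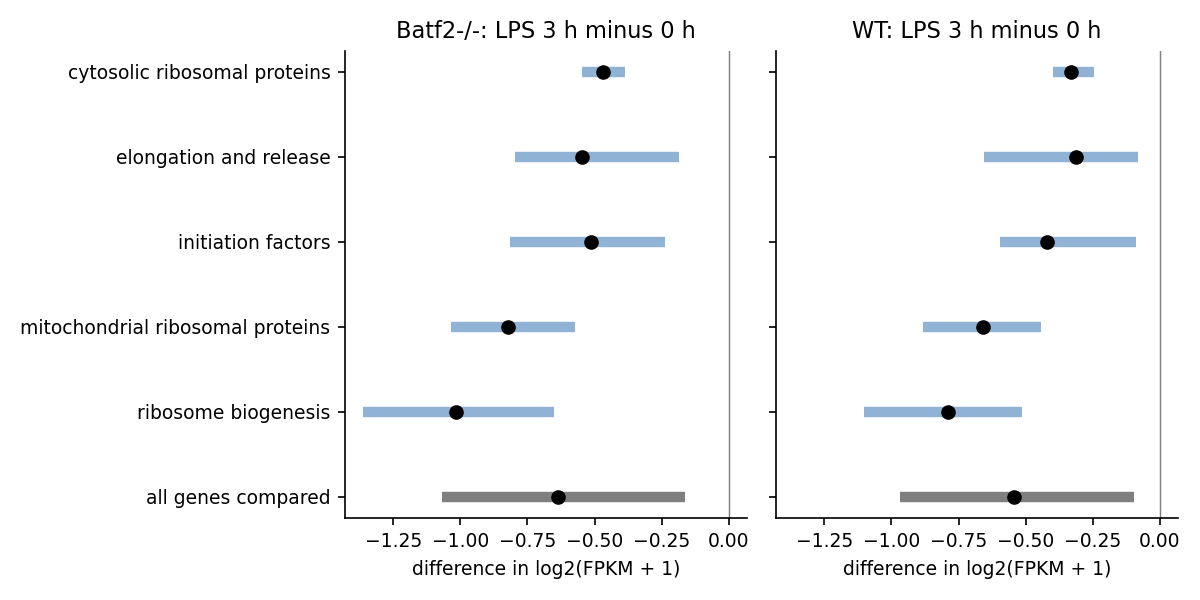
Median (dot) and middle 50% (bar) of the LPS difference (3 h minus 0 h, log2(FPKM + 1)) of the ribosomal protein genes, 4 other lists and all genes compared, in Batf2-/- cells (left) and WT cells (right). The cytosolic ribosomal proteins have a narrow bar at -0.47 in Batf2-/- cells and -0.33 in WT cells, which lies above the median of all genes and turns above 0 when libraries are divided by the median ratio, while ribosome biogenesis has medians of -1.02 in Batf2-/- cells and -0.79 in WT cells.

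Among known regulators of ribosomal protein synthesis, 6 of 22 were lower and 2 higher by the 2-fold rule in Batf2-/- cells after LPS, and 4 of 22 lower and 3 higher in WT cells. The shares that were lower, 27.3% in Batf2-/- cells and 18.2% in WT cells, stand beside 28% and 23.2% of all genes in the same genotypes, which is near or below the background. The shares that were higher, 9.09% in Batf2-/- cells and 13.6% in WT cells, rest on 2 and 3 genes and stand beside 7.85% and 7.56% of all genes. Myc had 3.34 FPKM in Batf2-/- cells at 3 h and 33.0 FPKM at 0 h, against 3.29 FPKM in WT cells at 3 h and 31.2 FPKM at 0 h. Mxd1, which competes with Myc for their partner Max, had 51.8 FPKM in Batf2-/- cells at 3 h and 18.2 FPKM at 0 h, against 61.9 FPKM in WT cells at 3 h and 10.9 FPKM at 0 h. Larp1, which binds the TOP tract, had 72.7 FPKM in Batf2-/- cells at 3 h and 35.5 FPKM at 0 h, against 70.5 FPKM in WT cells at 3 h and 33.6 FPKM at 0 h. Eif4ebp2, a repressor of cap-dependent translation that mTOR inactivates, had 14.2 FPKM in Batf2-/- cells at 3 h and 52.4 FPKM at 0 h, against 19.2 FPKM in WT cells at 3 h and 56.4 FPKM at 0 h. Mtor had between 4.29 and 6.28 FPKM and did not pass the rule. In each genotype the 3 h library was thus lower than the 0 h library for Myc and Eif4ebp2 and higher for Mxd1 and Larp1. Between genotypes none of the 22 passed the rule at either time.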

How the data were processed

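RNA-seq tables of 4 libraries were used. The values are FPKM with a 95% interval and a status for each RefSeq transcript, deposited by the authors as Cufflinks tables; the submitters' processing notes name TopHat2, Bowtie, SAMtools and Cufflinks as tools and mm9 as build. Per the labels' protocols, libraries were strand-specific single reads of total RNA. Loci in the files fit GRCm38 (108 of 109 entries of these genes lay at the GRCm38 gene), so coordinates are given in that build.

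FPKM was summed per gene symbol (Python 3.11.15, pandas 2.3.3). Differences are log2(FPKM + 1), without rescaling, for genes with at least 1 FPKM in a compared library and the status OK in both. For 65 of the 83 genes FPKM lay outside its own deposited interval in all 4 libraries, mostly by a factor alike between libraries, so printed intervals were centred on the FPKM. That factor lay between 0.955 and 2.56 times the midpoint, and changed by under 5% between libraries for 79 of the 83 genes. FPKM is relative: it gives a share of the RNA and not an amount per cell. Named genes were those of highest and lowest level, largest differences, calls, paralogues, genes listed at 0 and genes of a known role. The members, lists and rules were chosen with earlier results of these data known. Alternatives were another pseudocount, another filter, rescaling by the median ratio, other choices of entries and members, and a 1.5-fold rule; interval midpoints and leaving out Rps29 were chosen after seeing the data. Some genes that the naming rule picks are not reported here. The rule was tested on simulated data. Copies were aligned to their parents with blastn.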

Additional observations from a re-analysis of the deposited data

Results flagged for a closer look

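The LPS difference went in opposite directions in the 2 genotypes for 4 of the 81 ribosomal protein genes compared in all 4 ways. Rps29 had a difference of responses of 1.52 (interval 1.31 to 1.74), higher after LPS in Batf2-/- cells and slightly lower in WT cells. Rps27l had a difference of responses of -0.24 (-0.47 to -0.02), slightly lower after LPS in Batf2-/- cells and slightly higher in WT cells. Rps27, with a difference of responses of -0.30 (-1.11 to 0.52), and Rpl22l1, with one of 0.50 (-0.54 to 1.54), were listed at low levels, and their intervals include 0. Each direction comes from 1 library per group, and the difference between genotypes was not tested.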

How the results depend on the processing

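Of 175 recomputed medians and counts, 157 kept their direction and moved by less than the interval of a typical gene (medians) or stayed within 1.5 times (counts), 15 moved further and 3 turned in direction. Dividing each library by the median ratio over all genes turned the median difference to 0.15 after LPS in Batf2-/- cells, to 0.21 after LPS in WT cells and to 0.018 between genotypes at 3 h. It also brought the median difference of responses to -0.04, and genes with FPKM inside their own interval had a median of -0.03 between genotypes at 3 h. No call of a ribosomal protein gene as lower after LPS in WT cells appeared except under a 1.5-fold rule, which gave 2. That rule gave 10 lower after LPS in Batf2-/- cells and 1 lower for the difference of responses. A pseudocount of 0.1 gave 1 lower in each of these. Genes higher in Batf2-/- cells at 0 h numbered 1 with a pseudocount of 5 and with at least 5 FPKM. They also numbered 1 without Rps19bp1 and the paralogues whose names end in l or l1, a choice that kept Rpl37rt and Rps23rg1. Among genes with FPKM inside their own interval they numbered 1 as well. In the last subset, 0 genes were higher in Batf2-/- cells at 3 h, after LPS in Batf2-/- cells or for the difference of responses. Without Rps29, an alternative chosen after seeing the data, these counts were 1, 0 and 0. The cause of these moves was not tested beyond the smaller number of genes. No paired analysis was possible because each group holds 1 library. Read depth is not given in the tables, and low genes such as Rpl39l, Rpl3l and Rpl22l1 have wide intervals.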
